A study of Mus musculus with 100 samples.

Results

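The postnatal maturation of wild-type prefrontal cortex was followed by comparing the transcriptomes of mice at postnatal day 22 (P22) and postnatal day 0 (P0). The 10 animals compared were the wild-type P0 and P22 mice among the 53 animals of the series, chosen by their labelled age and genotype: 4 animals at P0 and 6 at P22. They were the wild-type animals (WT) of a mouse line with a frameshift mutation of Myt1l, and they received no treatment. The labels give the strain as C57BL/6J, whereas the methods of the study name C57BL/6N for the zygotes and for the mice the founders were bred with. Their labels give prefrontal cortex as the tissue at both ages, so each library holds RNA of neurons, glia, vessels and meninges together. The 4 P0 animals were 2 males of sequencing batch 1 and 2 females of sequencing batch 3, so that sex and batch cannot be told apart at P0. The 6 P22 animals were 1 male and 2 females of batch 1 and 1 male and 2 females of batch 3.

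RNA was sequenced from 18 libraries, and the 1 or 2 libraries of each animal were summed. The totals were 33431671 to 144898264 reads at P0 and 31580514 to 49837560 reads at P22. Libraries of the same animal differed little more than counting noise (chi-square per degree of freedom 1.21 to 1.33 over 8 pairs), whereas 2 animals of a group differed by 6.23 to 89.0 over 21 pairs. The sum of mitochondrially encoded reads was 1.48% to 2.22% of the reads at P0 and 3.57% to 6.82% at P22. The level of a gene is given as counts-per-million (CPM), with library sizes scaled by the trimmed mean of M values, and the 4 P0 values are always given in the order of the 2 males of batch 1 and then the 2 females of batch 3.

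All 36 markers of cortical layers passed the filter on low counts. Markers of neighbouring tissues were also present and varied between animals. The summed level of 16 striatal markers was 398 to 403 CPM in the P0 animals of batch 1 and 531 to 538 CPM in those of batch 3, while at P22 it was 769 to 989 CPM in batch 1 and 536 to 551 CPM in batch 3. Isl1, a transcription factor of striatal and other ventral forebrain neurons, stood at 0.382, 1.16, 10.9 and 18.2 CPM at P0 and 0 to 0.901 CPM (median 0.12) at P22. Its log2 fold change was -0.24 within batch 1 and lost the call there. The median of the striatal list was 0.90 within batch 1 and -1.27 within batch 3 on the log2 scale. Ttr, the transthyretin of the choroid plexus, was at 111 CPM in 1 P22 female of batch 1 and at most 2.87 CPM in the other 5 P22 animals. Of 10 tested choroid plexus genes, 4 rose and 2 fell, and of 8 genes of the olfactory bulb and migrating neuroblasts, 1 rose and 5 fell. The choroid plexus median was 2.12 within batch 1 and -1.02 within batch 3. Thalamic markers summed to 129 to 158 CPM at P0 and 98.1 to 143 CPM at P22, and their median was 0.48 within batch 1 and -0.86 within batch 3. Erythroid genes, which follow blood left in the tissue, summed to 50.7 to 94.5 CPM at P0 and 121 to 283 CPM at P22, and the defining erythroid factors Gata1 and Klf1 were below the filter. The part of these tissues in the results below was not tested, and values within each batch are given beside the named genes whose call they changed and beside the list medians that changed sign or differed by more than 1.5 times between the batches.

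At birth the mouse cortex has made almost all of its projection neurons, but few of their synapses. During the following 3 weeks the last progenitors leave the cell cycle or turn to making glia, axons and dendrites reach their targets, synapses form and are pruned, and receptor and channel subunits of the immature brain are exchanged for those of the mature brain. Astrocytes expand, microglia settle and oligodendrocyte precursors differentiate and wrap axons in myelin. P22 falls after eye opening and around weaning, when cortical circuits are still plastic.

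The comparison of P22 with P0 covered 18598 genes, and most of them changed. By edgeR's quasi-likelihood test with sequencing batch as covariate, 15200 genes (81.7%) passed a false discovery rate (FDR) of 0.05 after Benjamini-Hochberg adjustment, 7481 (40.2%) higher and 7719 (41.5%) lower at P22. Against a fold change of 2 (edgeR's glmTreat), 3690 genes (19.8%) were higher and 2812 (15.1%) lower. The animals of the 2 ages did not overlap in CPM for 12399 genes (66.7%). The median log2 fold change over all genes was -0.03 and the median of its size was 0.87, and 3413 of the genes called differed over 4-fold and 701 over 16-fold. The first principal component held 85.3% of the variance between animals and separated the ages. The second held 4.80%, of which batch accounted for 83.7%. In what follows, rose and fell mean that a gene passed this FDR. Counts of a list are to be read against the 81.7% called among all genes. Its risers are to be read against 40.2% and its fallers against 41.5%, so a list that moves in both directions may do no more than all genes do. Counts over 2-fold are to be read against 19.8% higher and 15.1% lower, and a lack of overlap against 66.7%.

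**Figure D1:**
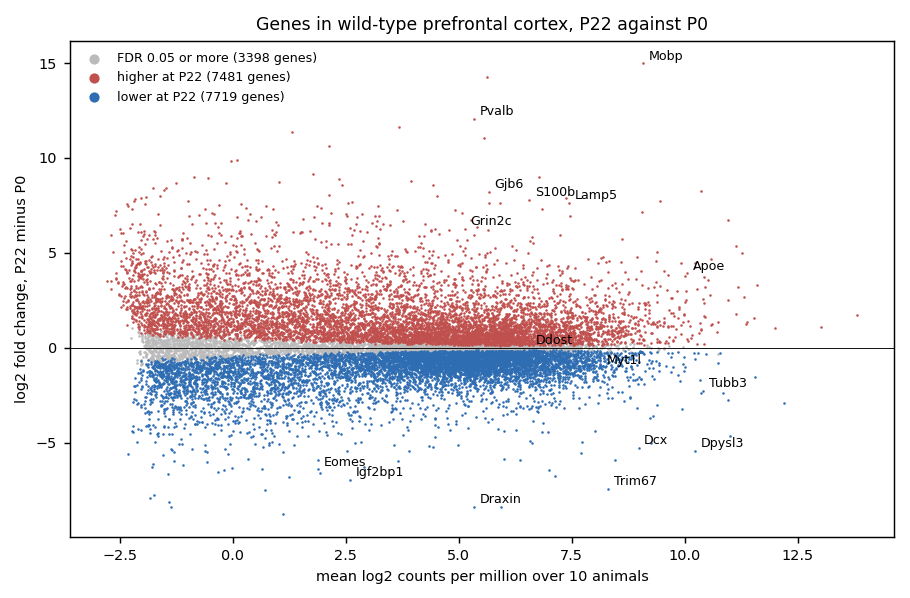
Log2 fold change of each tested gene from P0 to P22 (vertical axis) against its mean log2 CPM over the 10 animals (horizontal axis). The 7481 genes that rose (red) and the 7719 that fell (blue) are spread over the whole range of levels, with Mobp and Pvalb at the upper edge and Draxin and Trim67 at the lower edge.

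The largest rises were mostly those of myelin and astrocyte genes, together with that of Pvalb, a gene of interneurons. Among genes with a mean of at least 3 log2 CPM, the 12 largest rises included Mobp, Pvalb, Opalin, Mog, Cldn11, Etnppl, Fa2h, Gjb6, Myoc, Mal and S100b. Mobp, which encodes a myelin-associated oligodendrocyte protein, was represented by 1 to 5 reads in each P0 animal and by 15569 to 67360 reads in each P22 animal. Opalin, a membrane protein of mature oligodendrocytes, had 2 reads in all 4 P0 animals together and 436 to 1474 in each P22 animal, a ratio of 3990 with an exact 95% counting interval of 1100 to 32900. These transcripts were thus close to absent at birth. The intervals cover counting error only.

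The 12 largest falls were those of Igfbpl1, Draxin, Trim67, St8sia2, Mex3a, Adamts7, Cd24a, Gpc2, Vash2, Sox11, Dpysl3 and B3gnt5. Several of these belong to young neurons: St8sia2 makes the polysialic acid of the immature neural cell adhesion molecule, Sox11 is a transcription factor of newborn neurons, and Draxin is a secreted axon guidance protein. Trim67 had 784 ± 75 CPM at P0 and 4.54 ± 0.59 CPM at P22 (SD, n = 4 and 6), a decrease of 173-fold. St8sia2 had 345 ± 19 CPM at P0 and 3.15 ± 0.58 CPM at P22. Draxin stood at 120.1, 103, 95.7 and 80.5 CPM at P0 and 0.0598 to 0.781 CPM (median 0.199) at P22. Only genes without overlap between the ages entered this ranking, so none of the 12 could overlap.

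**Figure D2:**
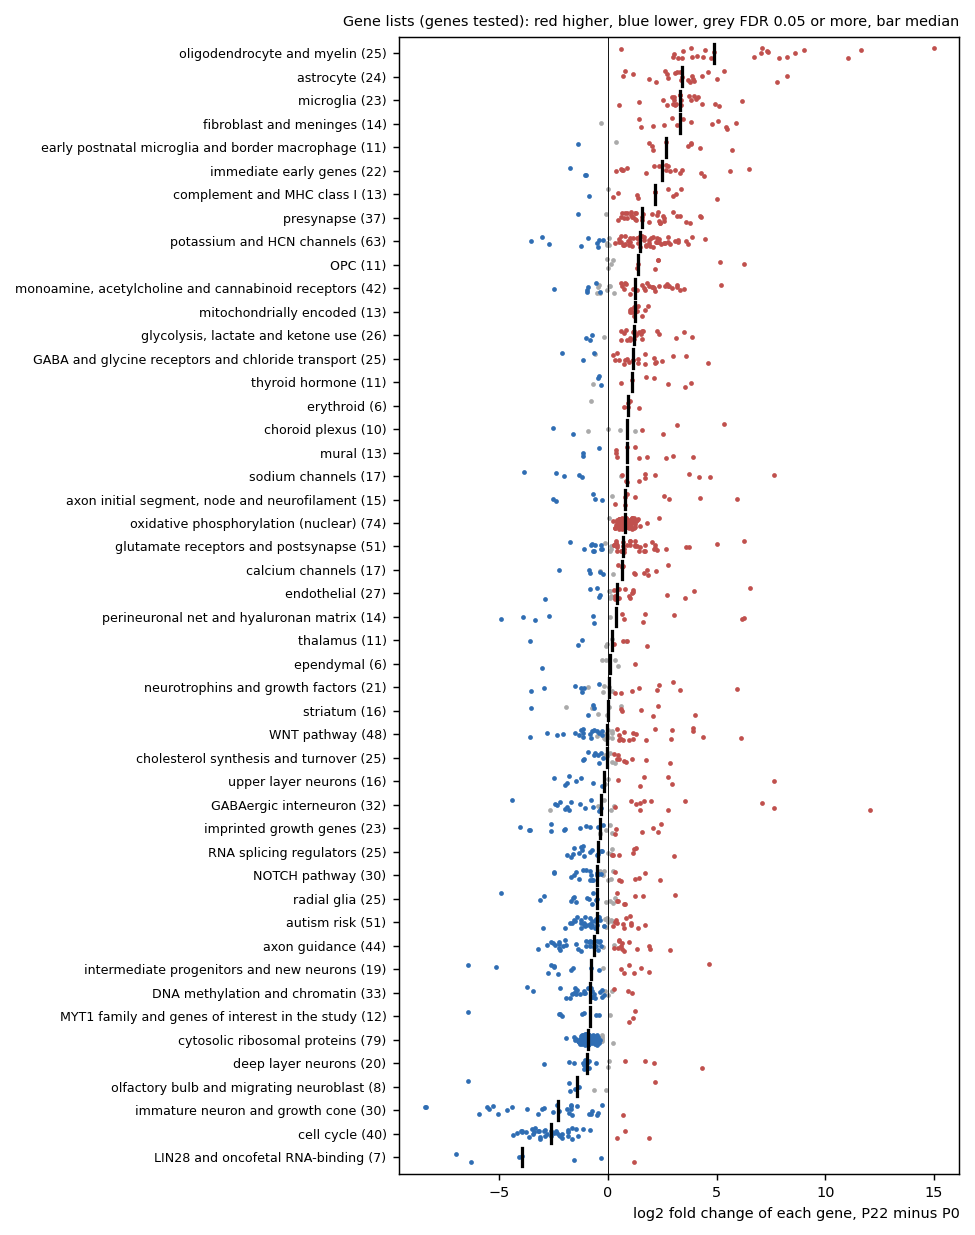
Log2 fold change from P0 to P22 (horizontal axis) of every tested gene of the 48 gene lists (rows, with the number of genes tested), ordered by their medians (black bars). Myelin, astrocyte and microglial genes lie at the top with medians of 4.88, 3.40 and 3.32, and the growth cone, cell cycle and LIN28 lists at the bottom with medians of -2.31, -2.62 and -3.92.

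Genes of the cell cycle fell almost without exception. Of 40 members, 3 rose and 37 fell, 35 of them over 2-fold, and the median log2 fold change was -2.62. The summed level of the list was 571 to 663 CPM at P0 and 144 to 171 CPM at P22. Mcm7, a subunit of the helicase that unwinds replicating DNA, stood at 72.9, 66.2, 73.4 and 91.7 CPM at P0 and 9.55 to 12.8 CPM (median 10.9) at P22 (log2 fold change -2.79 ± 0.089 (SE), FDR 3.71e-11, edgeR). Ccna2, the cyclin of S phase and entry into mitosis, stood at 14.1, 15.8, 14.1 and 11.9 CPM at P0 and 1.23 to 1.63 CPM (median 1.34) at P22. The animals of the 2 ages were far apart for both. Tpx2, a spindle assembly factor, went from 16.4 to 2.69 CPM and Rrm2, which supplies deoxynucleotides for replication, from 24 to 2.7 CPM. The 3 members that rose were Ccne1 (4.91 to 18.3 CPM), Ccne2 (2.57 to 4.41 CPM) and Gmnn (2.12 to 2.81 CPM). Ccne1 and Ccne2 encode the cyclins E. The call of Gmnn, the inhibitor of replication licensing, was lost in 11 of the 18 alternative fits it entered, and its change was 0.14 within batch 3.

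Because the cell cycle members fell together, their promoters were searched for the letters of known cell cycle elements in the RefSeq promoter table (GRCm38.p6, 250 bases before to 50 bases after the start of each gene, both strands). Of the 40 genes, 34 had an entry. The E2F site, the element bound by the E2F factors of S phase, was searched as TTTCCCGC or TTTGGCGC and was found in 6 of the 34 promoters (17.6%), against 2.78% of the 12799 tested genes with an entry and 1.63% of all 27025 promoters. The cell cycle homology region (CHR), searched as TTTGAA, was found in 16 (47.1%), against 12.1% of tested genes and 18.1% of all. The CCAAT box, bound by NF-Y, was found in 26 (76.5%), against 38.3% of tested genes and 37.9% of all. None of these strings contains another. The 120 bases before the start are shown, in the direction of the gene with every match in capitals, for the 4 genes with 3 or more matches and the largest falls and for Mcm6, which holds 2 E2F matches. The cyclic AMP response element, TGACGTCA, would also be in capitals, and a match is a description and not evidence of binding.
Top2a (chr11:99024190-99024309, minus strand): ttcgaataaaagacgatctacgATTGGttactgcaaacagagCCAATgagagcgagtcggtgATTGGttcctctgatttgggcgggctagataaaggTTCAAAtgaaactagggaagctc
Cdk1 (chr10:69352913-69353032, minus strand): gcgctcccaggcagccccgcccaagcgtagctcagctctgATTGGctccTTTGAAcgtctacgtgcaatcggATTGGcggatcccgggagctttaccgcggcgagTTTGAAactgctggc
Ube2c (chr2:164769809-164769928, plus strand): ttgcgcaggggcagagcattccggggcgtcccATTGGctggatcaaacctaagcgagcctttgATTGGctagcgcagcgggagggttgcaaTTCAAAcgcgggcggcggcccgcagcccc
Hmgb2 (chr8:57511723-57511842, plus strand): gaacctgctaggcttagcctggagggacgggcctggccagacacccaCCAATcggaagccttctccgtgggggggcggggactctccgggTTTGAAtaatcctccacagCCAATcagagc
Mcm6 (chr1:128359706-128359825, minus strand): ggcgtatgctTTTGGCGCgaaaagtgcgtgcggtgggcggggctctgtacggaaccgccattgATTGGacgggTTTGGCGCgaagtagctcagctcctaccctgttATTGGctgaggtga
In the first 4 of these, a CCAAT box lies upstream of a CHR match. These genes encode a DNA topoisomerase, the mitotic kinase, a ubiquitin-conjugating enzyme of mitotic exit, a chromatin protein and another helicase subunit. Their log2 fold changes were -4.17, -3.93, -3.60, -3.19 and -2.46 in the order shown.

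Progenitor genes did not move as one group. Of the 25 radial glia genes, 8 rose and 13 fell, with a median of -0.48. This median was -0.36 within batch 1 and 0.01 within batch 3. Nes, the intermediate filament nestin of neural stem cells, fell from 77.2 to 9.19 CPM, and Vim, vimentin, from 90.6 to 30.9 CPM. Tnc, the matrix protein tenascin C, stood at 322, 249, 219 and 120.1 CPM at P0 and 6.63 to 8.4 CPM (median 7.25) at P22, a fall of 30.2-fold with no overlap. Among the members that rose, Hopx, a marker of outer radial glia at birth and of astrocytes later, stood at 4.7, 5.58, 3.02 and 2.66 CPM at P0 and 24.2 to 50 CPM (median 30.4) at P22. Ccnd1 rose from 19.5 to 59.9 CPM and Hes1, an effector of NOTCH signalling, from 3.33 to 7.84 CPM. Sox9 rose too (log2 fold change 0.79), although its animals overlapped.

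Of 19 tested genes of intermediate progenitors and new neurons, 7 rose and 11 fell. Eomes (TBR2), the factor that defines intermediate progenitors, stood at 12.5, 10.9, 4.6 and 4.31 CPM at P0 and 0 to 0.211 CPM (median 0.0815) at P22. The P22 animals held 23 Eomes reads in all, and the pooled level at P0 was 100 times that at P22 (exact 95% counting interval 66.7 to 158). At P0 both batch 1 males were above both batch 3 females. Insm1, which drives delamination of progenitors, fell from 17.2 to 2.5 CPM and Hes6 from 62.2 to 11.3 CPM. Tac2, a tachykinin precursor, rose from 0.311 to 8.34 CPM, and Rnd2, a small GTPase of migrating neurons, from 44 to 128 CPM. Of the 30 NOTCH pathway genes, 7 rose and 17 fell. The median was -0.56 within batch 1 and -0.31 within batch 3. The ligand Dll1 fell from 23.4 to 4.13 CPM, whereas the NOTCH inhibitor Numb rose from 9.92 to 53.1 CPM and the targets Hey1 and Hey2 from 18.1 to 59 CPM and 1.59 to 4.26 CPM. Fewer cells of a type and less RNA per cell cannot be told apart in bulk tissue, here and in all that follows.

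The genes of immature neurons and growth cones, which bind and move the cytoskeleton of growing neurites, nearly all fell. Of 30 members, 1 rose and 29 fell, 23 of them over 2-fold, and their summed level was 39447 to 45655 CPM at P0 and 8585 to 9375 CPM at P22. Dcx (doublecortin, chrX:143855842-143933311 in mm10) stood at 1161, 1336, 1192 and 1165 CPM at P0 and 25.9 to 35.5 CPM (median 31.5) at P22 (log2 fold change -5.29 ± 0.094 (SE), FDR 8.74e-13, edgeR). Dpysl3 (CRMP4), which carries semaphorin signals to tubulin, stood at 2928, 2813, 2881 and 2957 CPM at P0 and 54.8 to 82.2 CPM (median 67.2) at P22. The 2 ages were separated by a factor of more than 30 at their nearest animals for both. Dpysl5 fell from 1450 to 44.4 CPM and Crmp1 from 2122 to 228 CPM. Tubb3, the neuronal class III beta-tubulin, stood at 2614, 2176, 2743 and 2848 CPM at P0 and 471 to 598 CPM (median 538) at P22. The member that rose was Dclk1, a doublecortin-like kinase, from 703 to 1153 CPM.

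Axon guidance genes fell more often than they rose. Of 44 members, 13 rose and 28 fell, 4 and 15 of them over 2-fold. The receptors Epha3 and Ephb2 fell from 69.8 to 9.86 CPM and 158 to 27.5 CPM, the ligand Efnb2 from 247 to 51.7 CPM and the secreted repellent Sema3f from 48.5 to 7.86 CPM. Those that rose most were Sema3e (3.19 to 22.9 CPM), Sema3d (2.05 to 8.21 CPM), Slit3 (9.13 to 29.8 CPM) and Ephb3 (13.4 to 35.1 CPM). Ligands and receptors were found on both sides.

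RNA-binding genes of the fetal growth programme were among the strongest falls. LIN28 proteins block the maturation of let-7 microRNAs, and the IGF2BP proteins stabilise fetal transcripts. Of the 7 tested members, 1 rose and 6 fell, with a median of -3.92. Igf2bp1 stood at 13.8, 20.5, 11.8 and 9.94 CPM at P0 and 0.0422 to 0.275 CPM (median 0.0762) at P22, Igf2bp3 fell from 17.8 to 0.21 CPM and Igf2bp2 from 24.4 to 1.6 CPM. All P0 animals were above all P22 animals. Lin28b stood at 8.6, 9.02, 10.1 and 6.62 CPM at P0 and 1.88 to 4.18 CPM (median 2.88) at P22, a smaller fall of 2.95-fold, and Lin28a was below the filter. Trim71, a let-7 target in stem cells, rose at a low level from 0.223 to 0.523 CPM. Of the 23 imprinted growth genes, 6 rose and 12 fell. Their median was -0.72 within batch 1 and -0.26 within batch 3. Cdkn1c, an inhibitor of the cell cycle, fell from 36.1 to 5.93 CPM and Magel2 from 18.3 to 1.13 CPM. Impact rose from 35.3 to 175 CPM and Snrpn from 346 to 1014 CPM. Igf2, a growth factor that meninges and choroid plexus make in the postnatal brain, stood at 30.2, 29, 35.5 and 24.2 CPM at P0 and 85.9 to 163 CPM (median 127) at P22. Fibroblast and meningeal markers summed to 78.1 to 93 CPM at P0 and 219 to 469 CPM at P22, and their part in the Igf2 value was not tested.

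Synaptic genes rose. Of 37 presynaptic genes, 35 rose and 1 fell, 25 of those that rose over 2-fold, with a median of 1.59 and a summed level of 5839 to 6844 CPM at P0 and 21696 to 24056 CPM at P22. Snap25, the SNARE protein of synaptic vesicle fusion, stood at 169, 217, 181 and 185 CPM at P0 and 1753 to 2748 CPM (median 2423) at P22 (log2 fold change 3.59 ± 0.12 (SE), FDR 6.78e-11, edgeR). Syt1, its calcium sensor synaptotagmin 1, stood at 283, 294, 294 and 266 CPM at P0 and 1415 to 1631 CPM (median 1504) at P22. Neither overlapped between ages. Vamp1 rose from 13.2 to 121 CPM and Syt12 from 2.67 to 52.5 CPM. The member that fell was Slc17a6 (VGLUT2), a vesicular glutamate transporter, from 51.1 to 20.5 CPM, while the related Slc17a7 (VGLUT1) of cortical projection neurons rose from 103 to 1921 CPM. Slc17a6 is also a thalamic marker, and at P22 the thalamic markers summed to 126 to 143 CPM in batch 1 and 98.1 to 103 CPM in batch 3.

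Among 51 tested glutamate receptor and postsynaptic genes, 37 rose and 10 fell. NMDA receptors combine the obligatory subunit GRIN1 with GRIN2 subunits that set their kinetics, and the brain is known to add GRIN2A to the GRIN2B of the newborn. Grin1 stood at 159, 138, 144 and 118 CPM at P0 and 445 to 687 CPM (median 583) at P22. Grin2a stood at 10.8, 10.3, 12.1 and 9.51 CPM at P0 and 122 to 134 CPM (median 133) at P22 (log2 fold change 3.61 ± 0.079 (SE), FDR 2.92e-12, edgeR), with every P22 animal more than 10 times above every P0 animal. Grin2b did not pass the test and stood at 317, 302, 387 and 317 CPM at P0 and 341 to 399 CPM (median 359) at P22, and the 95% interval of its log2 fold change was -0.04 to 0.31. It was called higher in 3 alternative fits, among them that within batch 1 (0.27). Grin2c, a subunit of astrocytes and cerebellar neurons, stood at 0.795, 0.699, 1.1 and 0.376 CPM at P0 and 53.8 to 63.5 CPM (median 58.4) at P22. Grin2d fell from 22.5 to 13.9 CPM, with overlapping animals and a log2 fold change of -0.15 within batch 3 that was not called, and Grin3a from 76.7 to 49.4 CPM. Per kilobase of exon and scaled by depth (RPKM), Grin2a went from 0.596 to 7.29 RPKM and Grin2b from 13.3 to 14.6 RPKM, so that Grin2b remained the more abundant transcript at P22.

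Among AMPA receptor subunits, Gria3 rose from 53.4 to 235 CPM, Gria4 from 58.9 to 91.5 CPM and Gria1 from 218 to 289 CPM. Gria2, the subunit that makes the channel impermeable to calcium, fell from 536 to 436 CPM, its animals overlapped, and the call was lost within batch 1 (log2 fold change -0.28). Kainate receptor subunits split: Grik3, Grik2 and Grik1 fell, from 224 to 103 CPM, 61.5 to 41.1 CPM and 24 to 14.7 CPM, Grik4 rose from 22.2 to 29.2 CPM and Grik5 did not pass the test (log2 fold change 0.09). Within batch 3 the log2 fold change of Grik1 was -0.30 and lost its call, and Grik5 was called higher, at 0.28. Metabotropic receptors Grm3, Grm4, Grm7 and Grm8 rose, with log2 fold changes of 1.27, 1.46, 1.24 and 1.73. Grm5, abundant in young neurons, did not pass the test (105 to 119 CPM), but it was called higher within batch 1 (log2 fold change 0.36) and without 1 P0 female of batch 3 (0.28). Grm2 was called higher (log2 fold change 0.42) but lost the call in 4 alternative fits, among them that within batch 1, where it was at -0.02. The postsynaptic adaptors and accessory subunits Cacng3 and Dlg1 rose from 23.6 to 152 CPM and 36.7 to 165 CPM, and Homer3 and Lrrtm1 fell from 27.5 to 8.22 CPM and 90.2 to 53.4 CPM.

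GABA receptors are built from subunits that set their kinetics and place, and the mix of subunits is known to change after birth. Of the 25 tested genes for GABA and glycine receptors and chloride transport, 21 rose and 3 fell. Gabra3, an alpha subunit of young synapses, stood at 80.4, 90.5, 75.8 and 63.5 CPM at P0 and 131 to 159 CPM (median 139.9) at P22. Gabra4 and Gabra2 rose from 13.9 to 108 CPM and 27 to 71.5 CPM, the log2 fold change of Gabra2 being 0.73 and not called within batch 1, while Gabra5 fell from 81.6 to 53 CPM. Gabrd, the delta subunit of extrasynaptic receptors, rose from 3.6 to 93.3 CPM, the largest change of the family (4.62 on the log2 scale). The beta subunits Gabrb1 and Gabrb2 rose from 23.3 to 101 CPM and 67.9 to 114 CPM. The gamma subunits Gabrg1 and Gabrg3 rose by 1.16 and 1.16 on the log2 scale, and Gabrq fell at a low level from 2.96 to 1.36 CPM. Glra2, the glycine receptor subunit of the embryonic brain, fell from 64.8 to 15.8 CPM, while Glrb, the beta subunit of glycine receptors, rose from 38 to 177 CPM.

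The direction of GABA responses depends on chloride, which SLC12A5 (KCC2) exports and SLC12A2 (NKCC1) imports. Slc12a5 stood at 124, 146, 90.2 and 78.5 CPM at P0 and 520 to 702 CPM (median 619) at P22 (log2 fold change 2.49 ± 0.18 (SE), FDR 4.75e-08, edgeR). Slc12a2 stood at 45.7, 49.6, 37 and 29.5 CPM at P0 and 37.5 to 62.3 CPM (median 50.4) at P22, with overlapping animals and a log2 fold change of 0.31 ± 0.074 (SE), a call that 2 alternative fits did not keep. Slc12a2 is also a gene of oligodendrocytes, endothelium and choroid plexus.

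To compare the early and late member of a pair within each animal, reads per kilobase of exon were divided for 15 pairs. The ratio differed between the ages in 13 of 15 pairs, each with an exact two-sided permutation p of 0.0095, the smallest that 4 against 6 animals allow, and 0.011 after Benjamini-Hochberg adjustment over the 15 pairs. Within a batch, 2 against 3 animals cannot go below 0.20. How many other pairs of genes would reach the same p was not worked out, so the 13 of 15 lacks a general share to be read against. Of single genes, 66.7% did not overlap between the ages. Grin2a to Grin2b rose from 0.0448 at P0 to 0.501 at P22 and Slc12a5 to Slc12a2 from 3.94 at P0 to 18.1 at P22. The ratio of the synaptic scaffolds Dlg4 (PSD-95) to Dlg3 (SAP102) rose from 1.1 at P0 to 2.25 at P22. For Slc17a7 to Slc17a6 it rose from 1.99 at P0 to 101 at P22, the log2 change being 4.86 in batch 1 and 6.46 in batch 3.

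Cytoskeletal pairs moved toward the mature member. Tubb4a to Tubb3 rose from 0.136 at P0 to 1.46 at P22, and Nefh to Ina, the heavy neurofilament against the internexin of young axons, from 0.00955 at P0 to 0.292 at P22. For the actin-sequestering thymosins Tmsb4x and Tmsb10 the ratio rose from 1.28 at P0 to 4.67 at P22 although both were called lower, with log2 fold changes of -0.50 and -2.35. Tmsb4x was at 0.01 within batch 1. Marcks to Marcksl1 rose from 0.0938 at P0 to 0.354 at P22 while both fell, by 1.12 and 3.02 on the log2 scale. Subunits of the neuronal BAF chromatin remodeller did not follow the order of their neuronal and progenitor members. The ratio of Actl6b to Actl6a was 5.05 at P0 to 6.49 at P22 and did not pass (exact permutation p = 0.12, adjusted 0.13). The ratio of Ss18l1 to Ss18 fell from 13.2 at P0 to 3.94 at P22 with Ss18l1 going from 124 to 42.6 CPM and Ss18 not called (22.4 to 25.8 CPM), although 1 alternative fit called it higher. Ptbp2 to Ptbp1, splicing repressors of neurons and progenitors, was 1.7 at P0 to 1.4 at P22 and did not pass (exact permutation p = 0.13), both having fallen. Thrb to Thra, the thyroid hormone receptors, rose from 0.00332 at P0 to 0.0315 at P22.

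**Figure D3:**
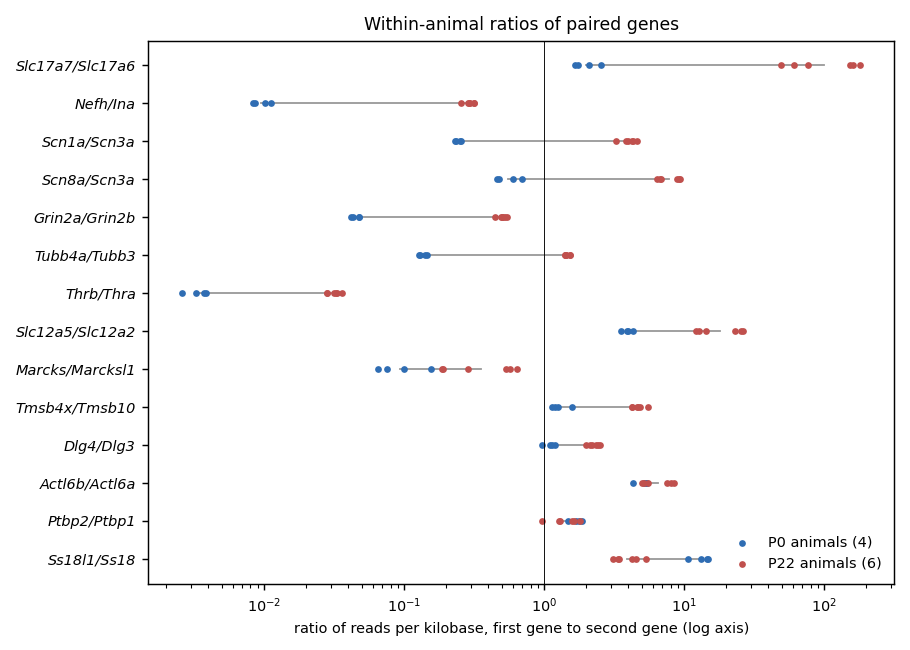
Ratio of reads per kilobase of exon of the 2 genes of 14 of the 15 pairs (log axis) in the 4 P0 animals (blue) and 6 P22 animals (red), a grey line joining the geometric means. The ages do not overlap for Slc17a7/Slc17a6, Nefh/Ina, Scn1a/Scn3a, Grin2a/Grin2b and 8 more pairs, and they overlap for Actl6b/Actl6a and Ptbp2/Ptbp1.

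Voltage-gated sodium channel genes moved in both directions. Of 17 tested genes, 11 rose and 5 fell. Scn3a, the alpha subunit of the fetal and newborn brain, stood at 154, 191, 151 and 146 CPM at P0 and 27.7 to 35.7 CPM (median 30.4) at P22 (log2 fold change -2.37 ± 0.068 (SE), FDR 1.63e-11, edgeR). Scn1a, the alpha subunit on which fast-spiking interneurons depend, stood at 33.6, 39.5, 30.5 and 32.5 CPM at P0 and 94.5 to 131 CPM (median 106) at P22, and Scn8a, that of the mature axon initial segment and nodes, at 133, 114, 112 and 83.3 CPM at P0 and 273 to 323 CPM (median 303) at P22. Scn2a rose from 150 to 272 CPM. Per length, Scn3a went from 12.6 to 2.46 RPKM, Scn1a from 3.05 to 9.9 RPKM, Scn8a from 7.01 to 19.1 RPKM and Scn2a from 11.7 to 21.1 RPKM. The ratio of Scn1a to Scn3a within an animal rose from 0.242 at P0 to 4.03 at P22 and that of Scn8a to Scn3a from 0.551 at P0 to 7.8 at P22.

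The auxiliary subunits, which set gating and surface number, included the largest rise of the list, that of Scn4b from 0.432 to 84.6 CPM. Scn2b rose from 18.3 to 307 CPM, whereas Scn3b fell from 249 to 98.9 CPM. Scn9a, known from sensory neurons, fell from 13.7 to 0.908 CPM, and Scn7a rose from 0.217 to 3.1 CPM. Scn11a fell from 0.674 to 0.164 CPM with overlapping animals, and Scn10a did not pass the test (0.331 to 0.467 CPM) but was called higher in 1 alternative fit.

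Of 63 potassium and hyperpolarisation-activated channel genes, 50 rose and 9 fell, 36 and 4 of them over 2-fold, with a median of 1.47. Kcnab2, a beta subunit of the axonal Kv1 channels, stood at 38.7, 34.1, 39 and 38.7 CPM at P0 and 426 to 481 CPM (median 447) at P22. Kcnk1, a leak channel of two-pore type, rose from 17.2 to 117 CPM and Kcnip3 from 33.3 to 181 CPM. Hcn4, the slow pacemaker subunit, stood at 79, 72.3, 73.2 and 71.8 CPM at P0 and 5.73 to 7.24 CPM (median 6.38) at P22 and Hcn3 fell from 44.6 to 19.4 CPM. Kcnk10 and Kcnh8 fell from 51.4 to 7.81 CPM and 3.41 to 0.422 CPM. Of 17 calcium channel genes, 10 rose and 5 fell. The median log2 fold change was 0.49 within batch 1 and 0.81 within batch 3. The auxiliary subunits Cacna2d3, Cacnb2 and Cacnb4 rose from 34.5 to 120.4 CPM, 10 to 36.3 CPM and 38.7 to 182 CPM. The low-threshold T-type pore Cacna1h fell from 193 to 42.6 CPM and the L-type pores Cacna1c and Cacna1d from 124 to 69.7 CPM and 84.6 to 46.9 CPM.

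The median of the axon initial segment, node and neurofilament genes was 0.47 within batch 1 and 0.84 within batch 3. Among them, Cntnap1 (CASPR), which forms the junctions between axon and myelin, stood at 4.73, 3.96, 4.18 and 2.95 CPM at P0 and 216 to 281 CPM (median 246) at P22. The neurofilament genes Nefh and Nefl rose from 3.47 to 67.8 CPM and 66.2 to 459 CPM, and Ina, the alpha-internexin of young axons, fell from 299 to 187 CPM. Mapt (tau) stood at 2667, 2313, 2770.4 and 2401 CPM at P0 and 467 to 511 CPM (median 498) at P22, with no overlap between the ages. Cntn2 fell from 548 to 95.5 CPM and Ank3, which encodes ankyrin G, from 459 to 308 CPM.

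**Figure D4:**
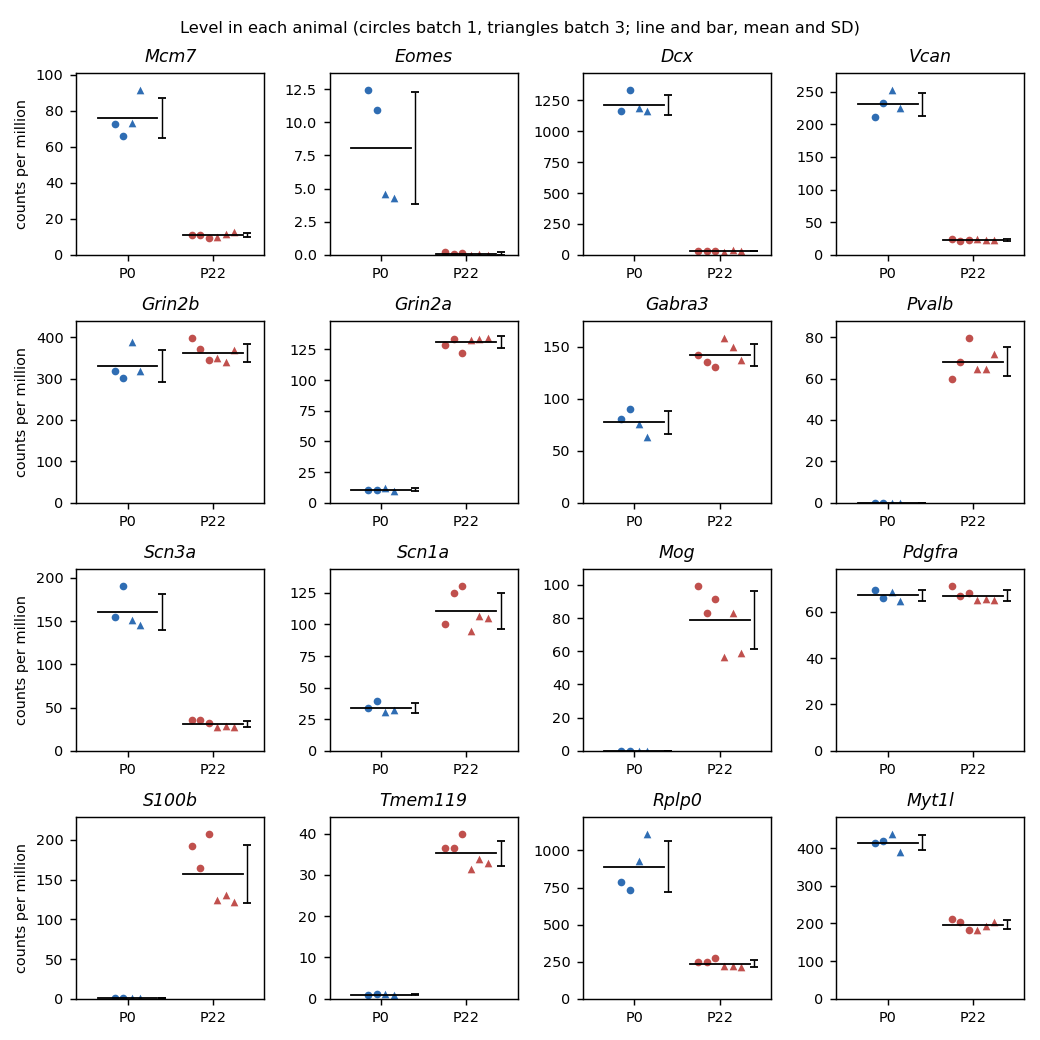
CPM of 16 genes (vertical axes from 0) in each of the 4 P0 animals (blue) and 6 P22 animals (red), circles for batch 1 and triangles for batch 3, with the mean and SD of each age. Grin2b and Pdgfra overlap between the ages, the other 14 do not, and S100b at P22 is higher in every batch 1 animal than in every batch 3 animal.

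Interneuron genes moved in both directions. Of 32 members, 12 rose and 15 fell, 10 and 9 of them over 2-fold. The median was -0.33, with 0.10 within batch 1 and -0.42 within batch 3. Most of the genes named here rose, whereas more members of the list fell than rose. The largest fall of the list was -4.42 on the log2 scale. Pvalb, the calcium buffer of fast-spiking cells, had 5 reads over the 4 P0 animals and 2003 to 3256 in each P22 animal (pooled ratio 4840, exact 95% counting interval 2070 to 14900). Vip rose from 0.362 to 56 CPM, Cck from 24.3 to 283 CPM and Lamp5, a marker of neurogliaform cells that layer 2/3 neurons also use, stood at 1.15, 1.62, 1.36 and 1.27 CPM at P0 and 214 to 359 CPM (median 286) at P22. Sst, the somatostatin of dendrite-targeting cells, was already present at birth and stood at 107, 114, 98.4 and 76.6 CPM at P0 and 195 to 231 CPM (median 202) at P22. Sst was named after its values were seen. Lhx6, the factor of cells from the medial ganglionic eminence, fell from 103 to 20.4 CPM.

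In the extracellular matrix, genes of the perineuronal net, the lattice around mature Pvalb cells, moved in both directions. Of 14 genes, 7 rose and 6 fell. The median of these genes was 0.19 within batch 1 and 0.33 within batch 3. Vcan, the proteoglycan versican, stood at 211, 232, 253 and 226 CPM at P0 and 21.6 to 24.3 CPM (median 22.8) at P22. The link proteins Hapln1 and Hapln4 rose, Hapln1 standing at 0.489, 0.862, 0.455 and 0.0578 CPM at P0 and 19 to 55.6 CPM (median 35.2) at P22 and Hapln4 going from 1.04 to 82.9 CPM. The hyaluronan synthases Has3 and Has2 fell from 33.7 to 2.25 CPM and 3.14 to 0.473 CPM.

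Receptors for neuromodulators mostly rose. Of 42 tested genes for receptors of monoamines, acetylcholine, adenosine and cannabinoids, 28 rose and 6 fell, with a median of 1.25. Chrm3, a muscarinic receptor, rose from 11.7 to 60.3 CPM, Adra1b from 4.5 to 35.6 CPM, Hrh2 from 2.45 to 15.3 CPM and Adora1, the main inhibitory adenosine receptor of cortex, from 103 to 309 CPM. The nicotinic subunits Chrna3 and Chrnb2 fell from 5.11 to 0.905 CPM and 103 to 54.1 CPM, and the cannabinoid receptor Cnr1 from 262 to 138 CPM. The call of Htr4, a low gene (1.28 to 0.69 CPM), came with overlapping animals.

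Activity-regulated genes were higher at P22. Of 22 immediate early genes, 19 rose and 3 fell, with a median of 2.51, and the summed level was 346 to 509 CPM at P0 and 1071 to 1779 CPM at P22. Ptgs2 (COX-2), which pyramidal cells induce with activity, stood at 0.138, 0.189, 0 and 0.0578 CPM at P0 and 8.95 to 13.2 CPM (median 11.2) at P22. Vgf rose from 31 to 198 CPM and Nptx2, an organiser of AMPA receptors, from 13.3 to 85.5 CPM. Inhba, an activin subunit, stood at 33.1, 28.9, 31.5 and 27.1 CPM at P0 and 7.37 to 11.2 CPM (median 8.81) at P22 and Nr4a3 fell from 37.3 to 18.3 CPM. Fosl2 fell from 56.1 to 27 CPM with overlap.

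Genes that mark the cortical layers moved in both directions, as all genes did. Of 16 upper layer genes, 6 rose and 8 fell, beside 40.2% and 41.5% of all genes. Their median was -0.54 within batch 1 and -0.12 within batch 3. Pou3f3 and Pou3f2 (BRN1 and BRN2) fell from 314 to 86 CPM and 92.5 to 27.4 CPM. Calb1, a calcium buffer of layer 2/3, and Scnn1a, used to mark layer 4, rose from 18.7 to 119 CPM and 1.01 to 3.28 CPM. Of 20 deep layer genes, 4 rose and 14 fell. Over 2-fold, 3 rose and 3 fell, beside 19.8% and 15.1% of all genes. The deep layer median was -0.54 within batch 1 and -1.02 within batch 3. Sox5 and Tle4 fell from 128 to 43.5 CPM and 114 to 54.2 CPM, and Ntsr1 of layer 6 from 72.2 to 9.22 CPM. Cplx3, a complexin of subplate neurons, stood at 2.29, 2.38, 1.5 and 0.896 CPM at P0 and 18.8 to 49.1 CPM (median 36.5) at P22, and Crym and Ccn2 rose by 2.14 and 1.71 on the log2 scale. Etv1 rose from 31 to 52.6 CPM, with overlap.

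The oligodendrocyte lineage was the group that rose most. All 25 genes of oligodendrocytes and myelin rose, 24 of them over 2-fold, with a median of 4.88, and their summed level was 99.5 to 112 CPM at P0 and 4690.4 to 12131 CPM at P22. Mog, of the outermost myelin, was at 0.0306, 0.0653, 0 and 0 CPM at P0 and 56.4 to 99.5 CPM (median 83.1) at P22, with no read in either batch 3 female at P0. Mag rose from 1.19 to 192 CPM. The P22 animals of batch 1 had 9500 to 12131 CPM of these genes and those of batch 3 had 4690.4 to 6844 CPM, with no overlap between the batches, and the list median was 5.14 and 4.65 within them.

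Precursor genes rose less. Of 11 genes of oligodendrocyte precursors (OPC), 7 rose, all 7 over 2-fold, none fell and 4 did not pass. The median was 1.41, and the summed level was 221 to 243 CPM at P0 and 471 to 752 CPM at P22. Pdgfra is the receptor that defines the precursor and keeps it dividing. It was among the 6 genes closest to no change of those with a mean of at least 6 log2 CPM, ranked by the 95% interval. Pdgfra stood at 69.5, 65.8, 68.4 and 64.8 CPM at P0 and 65 to 71.3 CPM (median 66.2) at P22, with a log2 fold change of -0.00 and a 95% interval of -0.12 to 0.11. With library totals alone as the scaling it was called lower. Neu4 and Bcas1 rose most, from 0.197 to 16.1 CPM and 3.46 to 126 CPM, and Gpr17, a receptor of precursors about to differentiate, rose from 26.6 to 131 CPM. Matn4 rose from 2.7 to 12.3 CPM.

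All 24 astrocyte genes rose, 22 of them over 2-fold, with a median of 3.40 and a summed level of 1155 to 1748 CPM at P0 and 14228 to 20873 CPM at P22. S100b, a calcium-binding protein of mature astrocytes and some oligodendrocytes, stood at 0.696, 0.836, 0.669 and 0.751 CPM at P0 and 122 to 208 CPM (median 148) at P22 and Gjb6, the gap junction protein connexin 30, at 0.206, 0.405, 0.241 and 0.231 CPM at P0 and 71.3 to 104 CPM (median 84.2) at P22 (log2 fold change 8.23 ± 0.18 (SE), FDR 3.23e-12, edgeR). Apoe, the lipid carrier, was present at birth and stood at 132, 146, 92.7 and 81.9 CPM at P0 and 1386 to 2065 CPM (median 1678) at P22. Batch 1 was again the higher at P22, with 17929 to 20873 CPM against 14228 to 15039 CPM.

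All 23 microglial genes rose as well, 22 over 2-fold, with a median of 3.32. Tmem119, a marker of mature homeostatic microglia, stood at 1.01, 1.1, 1.1 and 0.896 CPM at P0 and 31.5 to 40 CPM (median 35.1) at P22, Selplg rose from 0.619 to 46 CPM and Cx3cr1, the fractalkine receptor, from 6.54 to 67.4 CPM. Of 11 genes of early postnatal microglia and border macrophages, 9 rose and 1 fell, yet their summed level was 34.9 to 50.8 CPM at P0 and 32.4 to 62.3 CPM at P22. The member that fell was Lpl, which neurons and other cells also express, from 39.6 to 15.2 CPM, and it made up most of that sum at P0. The border macrophage genes Mrc1, F13a1 and Lyve1 rose from 1.32 to 8.44 CPM, 0.343 to 4.78 CPM and 0.124 to 1.77 CPM. Of 13 complement and MHC class I genes, 11 rose and 1 fell. C1qa, C1qb and C1qc, the chains of the complement protein that tags synapses, rose from 6.05 to 61.7 CPM, 8.33 to 72.5 CPM and 8.07 to 65 CPM, and B2m from 11.8 to 82.9 CPM. C3 was called lower at a low level (0.661 to 0.377 CPM), a call that was lost in 8 alternative fits, among them that within batch 3 (-0.47).

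Vascular genes showed a mixed pattern. Of 27 endothelial genes, 17 rose and 5 fell. Of these, 5 and 1 changed over 2-fold, beside 19.8% and 15.1% of all genes. The endothelial median was 0.30 within batch 1 and 0.60 within batch 3. Cldn5, the main tight junction claudin of brain endothelium, stood at 37.2, 41.4, 43.6 and 49.9 CPM at P0 and 22.1 to 39.8 CPM (median 35.1) at P22, with overlapping ages and a log2 fold change of -0.39 ± 0.1 (SE). The transporter Slco1a4 of the mature blood-brain barrier stood at 0.268, 0.431, 0.134 and 0.462 CPM at P0 and 28.9 to 35.5 CPM (median 30.6) at P22. The surface proteins Ly6a and Ly6c1 rose from 0.758 to 11.8 CPM and 3.05 to 20.2 CPM and the ligand Apln from 3.43 to 40.7 CPM, whereas its receptor Aplnr, used by sprouting vessels, fell from 13.8 to 1.91 CPM and the VEGF receptor Kdr from 27.4 to 15.7 CPM. Of 13 mural genes, 10 rose and 3 fell. Vtn, the vitronectin of pericytes, stood at 13.9, 11.5, 13.5 and 9.8 CPM at P0 and 68.7 to 88.9 CPM (median 79.2) at P22, and Acta2 and Tagln of smooth muscle rose from 0.414 to 6.68 CPM and 0.671 to 5.42 CPM. Notch3 and Abcc9 fell from 23.8 to 10.9 CPM and 14.1 to 6.64 CPM. Of 14 tested fibroblast and meningeal genes, 13 rose. Mgp stood at 0.436, 0.509, 0.589 and 0.578 CPM at P0 and 12.4 to 45.4 CPM (median 27.2) at P22 and Col1a2 rose from 4.35 to 46.9 CPM.

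Genes of energy metabolism rose. Of 26 genes for glycolysis and for lactate and ketone use, 22 rose and 3 fell, with a median of 1.21. Eno2, the neuronal enolase, stood at 93, 83.5, 105 and 87.7 CPM at P0 and 855 to 1183 CPM (median 1055) at P22. Aldoc, the aldolase of astrocytes, rose from 88.8 to 1254 CPM, Aldoa from 219.8 to 1918 CPM and Ldhb from 120 to 579 CPM. Pfkp, a phosphofructokinase, stood at 748, 634, 714 and 463 CPM at P0 and 274 to 363 CPM (median 325) at P22. The ketone-using enzymes Bdh1 and Acat1 fell from 161 to 89.4 CPM and 156 to 94.1 CPM.

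Of 74 nuclear genes of oxidative phosphorylation, 73 rose and none fell, but by small amounts: 11 rose over 2-fold and the median was 0.78. It was 1.05 within batch 1 and 0.55 within batch 3. Cox8a stood at 115, 107, 105 and 104 CPM at P0 and 444 to 675 CPM (median 550.1) at P22 and Sdha, of complex II, rose from 137 to 386 CPM. Cox8a had the largest change of the list (2.35 on the log2 scale). The letters GCGCATGC, the core of the site of NRF1, a factor of mitochondrial genes, were found in 10 of 62 promoters of this list (16.1%), against 4.89% of tested genes and 2.80% of all promoters. All 13 mitochondrially encoded genes rose, with a median of 1.25. They summed to 55167 to 57891 CPM at P22 in batch 1 and 31267 to 44363 CPM in batch 3.

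The genes of cytosolic ribosomal proteins moved the opposite way as a block. Of 79 members, none rose and 73 fell, 11 over 2-fold, with a median of -0.93 that was -0.54 within batch 1 and -1.33 within batch 3. Rplp0 stood at 789, 733, 932 and 1113 CPM at P0 and 214 to 272 CPM (median 235) at P22. Rpl22 fell from 259 to 89.5 CPM, Rpl7 from 531 to 214 CPM and Rpl10 from 490.4 to 223 CPM. At P0 the sum over the list was 22491 to 23854 CPM in batch 1 and 28336 to 32888 CPM in batch 3. Ribosomal protein genes have many processed pseudogenes, and reads could be split between them in the counting.

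Cholesterol genes were divided, as all genes were. Of 25 members, 9 rose and 9 fell, beside 40.2% and 41.5% of all genes. In all, 72% of the list was called, beside 81.7% of all genes. The median was 0.14 within batch 1 and -0.07 within batch 3. Cyp46a1, the neuronal enzyme that turns cholesterol over, stood at 48.9, 42.1, 30.8 and 26.5 CPM at P0 and 216 to 323 CPM (median 266) at P22. Lss, of the synthesis pathway, fell from 88.7 to 41 CPM and Ebp, a later enzyme, rose from 6.29 to 21.2 CPM. Msmo1 and Hsd17b7 rose from 53.8 to 118 CPM and 15.8 to 27.8 CPM, and Acat2 fell from 103 to 47.3 CPM.

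Regulators of chromatin and splicing mostly fell. Of 33 genes for DNA methylation and chromatin, 3 rose and 27 fell. Dnmt1, the maintenance DNA methyltransferase, stood at 167, 174, 188 and 195 CPM at P0 and 48.1 to 59.4 CPM (median 53) at P22 and Ezh2, the methyltransferase of Polycomb complex 2, at 54.6, 72.6, 54.9 and 54.4 CPM at P0 and 3.64 to 5.38 CPM (median 4.47) at P22 (log2 fold change -3.73 ± 0.094 (SE), FDR 6.88e-12, edgeR). Its homologue Ezh1 went from 41.9 to 50.8 CPM with overlap, a rise that 2 alternative fits did not call, among them that within batch 1 (0.12). Dpf1, a subunit of the neuronal BAF complex, fell from 197 to 52.4 CPM, while Hdac9 and Mbd2 rose from 19.8 to 43 CPM and 14.2 to 27.3 CPM. Of 25 splicing regulators, 7 rose and 15 fell. Srrm4, which includes neuronal microexons, fell from 139 to 38 CPM, Elavl3 from 727 to 247 CPM and Nova2 from 242 to 109 CPM. Mbnl2, which promotes postnatal splice forms, stood at 19, 25, 13.5 and 12.8 CPM at P0 and 119 to 163 CPM (median 139.9) at P22, and Mbnl1, Qk and Rbfox3 rose from 21.6 to 52.9 CPM, 106 to 261 CPM and 136 to 298 CPM.

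Thyroid hormone, whose level peaks in the second postnatal week in mice, acts through the receptors THRA and THRB. Of 11 genes of its pathway, 7 rose and 3 fell. Thra stood at 1279.8, 1221, 1056 and 1272 CPM at P0 and 812 to 958 CPM (median 869) at P22 and Thrb at 6.65, 7.25, 6.53 and 5.32 CPM at P0 and 39.2 to 46.9 CPM (median 44.5) at P22. Thra remained the more abundant per length at both ages, at 262 and 189 RPKM against 0.869 and 5.95 RPKM. Dio2, the astrocytic enzyme that makes the active hormone, stood at 9.87, 8.4, 15.6 and 10.2 CPM at P0 and 106 to 219 CPM (median 153) at P22. The hormone-responsive genes Klf9 and Hr rose, Klf9 standing at 23.6, 24.8, 14.5 and 12.3 CPM at P0 and 168 to 283 CPM (median 209.9) at P22 and Hr going from 20.8 to 70.1 CPM.

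Growth factor and WNT genes had medians near 0. Of 21 genes for neurotrophins and growth factors, 9 rose and 7 fell. Their median was 0.10 within batch 1 and 0.17 within batch 3. Fgf1 and Sort1 rose from 1.16 to 67.1 CPM and 191 to 517 CPM, and Ntf3 and the receptor Ngfr fell from 8.44 to 0.844 CPM and 12.2 to 0.989 CPM. The insulin and IGF1 receptors Insr and Igf1r fell from 94 to 40.5 CPM and 101 to 43.9 CPM. Of 48 tested WNT pathway genes, 19 rose and 18 fell. The antagonists Sfrp1 and Nkd2 fell from 61.6 to 12 CPM and 34.2 to 2.87 CPM, while the ligands Wnt10a, Wnt2 and Wnt9a rose from 0.0527 to 5.02 CPM, 0.239 to 4.38 CPM and 1.84 to 29 CPM.

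Of 51 autism risk genes, 12 rose and 31 fell, with a median of -0.49. Asxl3, a chromatin gene, stood at 74.8, 66.9, 76.9 and 75.1 CPM at P0 and 8.38 to 9.71 CPM (median 9.29) at P22, Reln, of Cajal-Retzius cells and interneurons, fell from 287 to 74.1 CPM and Deaf1 from 180 to 58.3 CPM. Shank3, the postsynaptic scaffold, stood at 83.7, 90.5, 69.1 and 69.5 CPM at P0 and 233 to 276 CPM (median 251) at P22, with no overlap between the ages.

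Myt1l, the zinc finger factor mutated in the HET mice of the line and studied for its part in keeping neurons neuronal, declined in wild-type cortex. Myt1l (chr12:29528384-29923213 in mm10) stood at 412, 418, 438 and 389 CPM at P0 and 184 to 212 CPM (median 199) at P22 (log2 fold change -1.07 ± 0.064 (SE), FDR 8.41e-09, edgeR), a decrease of 2.1-fold with no overlap. Of its relatives, Myt1 stood at 37, 36, 31.8 and 36.2 CPM at P0 and 6.76 to 8.02 CPM (median 7.79) at P22 and St18 at 5.32, 6.81, 3.27 and 2.28 CPM at P0 and 1.65 to 4.58 CPM (median 2.92) at P22, the latter with overlapping animals and a call that 3 alternative fits did not keep, among them that within batch 3 (-0.44). Per length, Myt1l went from 29.6 to 14.1 RPKM, Myt1 from 4.9 to 1.06 RPKM and St18 from 0.684 to 0.459 RPKM. Among genes the study singled out, Hes1 rose from 3.33 to 7.84 CPM, Id3 from 19.5 to 39.6 CPM and Prrx1 from 3.94 to 8.76 CPM, Cdca7 and Sema3c fell from 11.9 to 2.77 CPM and 31.7 to 24.1 CPM, and Sox2 did not pass (25.2 to 26.9 CPM). This list was drawn up from the study's account of these samples.

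Against so wide a change, the abundant genes closest to no change were Ddost, Pdgfra, Arel1, Hars, Ipo9 and Dlst. Ddost, a subunit of the oligosaccharyltransferase, stood at 94.4, 93, 98.6 and 97.1 CPM at P0 and 94.5 to 97.1 CPM (median 95.9) at P22, and its 95% interval was -0.10 to 0.11 on the log2 scale. These depend on the scaling: with library totals alone the median of all genes was -0.16 in place of -0.03, and Ddost, Pdgfra, Arel1 and Ipo9 were called lower.

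The change was checked in animals that the comparison did not use. Animals heterozygous for the Myt1l frameshift (HET) were sequenced at both ages (6 and 6 animals). Of 7236 genes that rose in WT and were tested in both, 6751 (93.3%) rose in HET and 4 fell, and of 7576 that fell in WT, 6824 (90.1%) fell and 17 rose. The share of all 18086 genes tested in both that was called in HET was not worked out. The 2 percentages therefore lack a general share to be read against. A test of the difference between the changes (age by genotype, edgeR) called 1 of 19784 genes (0.00505%), and 2916 genes (14.7%) had an unadjusted p under 0.05. Leaving out 1 P0 WT female of batch 3 raised the number called to 143 and leaving out the other to 55, and without 1 P0 WT male it was 0. It was 41 and 19 without either of 2 P0 HET animals and 3 without the other P0 WT male or either of 2 further P0 HET animals. The log2 change of Myt1l was -1.06 in WT and -1.15 in HET in this fit, a difference of -0.09 ± 0.088 (SE).

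The 2 ages were placed beside E18.5 whole cortex (5 WT animals) and 3-month adult prefrontal cortex (3 WT animals, all of batch 1) in 1 fit of 18 WT animals and 19872 genes. The step from E18.5 to P0 called 2832 genes higher and 2598 lower, that from P0 to P22 8191 and 7946, and that from P22 to adults 3226 and 3526. The steps share animals and differ in n and, at E18.5, in tissue. Levels below are plain means over animals, whereas log2 changes come from the fit with batch as covariate. The 2 need not match, since the adults are all of batch 1 and the P22 animals are of both batches. Dcx stood at 1467, 1181, 31.3 and 27.1 CPM at E18.5, P0, P22 and in adults and Dpysl3 at 3322, 2820, 67.8 and 31.6 CPM. For Snap25 the levels were 178, 183, 2318 and 4410 CPM, and for Grin2a 8.2, 10.4, 132 and 200.1 CPM, both of which rose again after P22 (log2 change 0.73 and 0.66). Mobp was higher at P22 than in the adults, at 0.0227, 0.0292, 909 and 352 CPM, the log2 change from P22 to adults being -1.79. Myt1l stood at 450.4, 403, 199 and 239.6 CPM, and its change after P22 was 0.31. Inhba, which had fallen by P22, stood at 44.6, 29.3, 9.1 and 23.7 CPM.

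**Figure D5:**
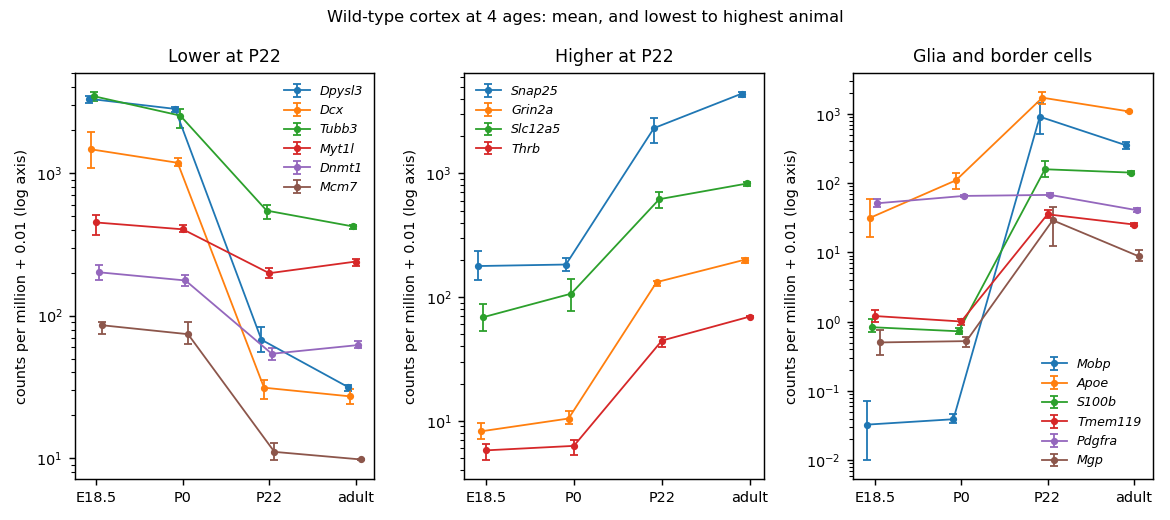
Mean CPM with the lowest and highest animal (log axis, 0.01 added) at E18.5 (5 animals), P0 (4), P22 (6) and in adults (3) for 16 genes. The step between P0 and P22 is the largest for all of them but Pdgfra, which is level between P0 and P22, and Mobp and Mgp are higher at P22 than in adults. The ages are evenly spaced although the steps last different times, so slopes are not rates.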

How the data were processed

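Cortical RNA was sequenced from mice as paired-end, strand-marking libraries. Per the submitters' processing notes and the study's methods, the authors aligned reads to mm10 with STAR and deposited raw counts per gene and library, and they tested with DESeq2. The counting program, its strand setting and its annotation are not given in the sources used here. Groups, sex and sequencing batch were taken from the labels. The 1 or 2 libraries of an animal were summed, so that n counts animals (4 at P0, 6 at P22), and totals were 31580514 to 144898264 reads. Nothing in the labels says whether animals of a group shared a litter.

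Genes were kept by filterByExpr of edgeR 4.0.16 (R 4.3.3), scaled by the trimmed mean of M values (TMM) and tested by edgeR's quasi-likelihood F test with batch as covariate, two-sided, with Benjamini-Hochberg adjustment over all 18598 genes at an FDR of 0.05, and against a fold change of 2 with glmTreat. CPM values used TMM library sizes, RPKM the exon length of the deposited annotation columns, and ratios added 0.5 reads to each count and were tested by an exact permutation test. Exact intervals cover counting error only. The scripts were tested on simulated counts. Genes named were the 12 largest rises and falls, the 6 closest to no change and, for each list, the 4 with the smallest p and those against the list's direction, with receptor and sodium channel subunits and the genes the study singled out. Some of the genes this rule names are not reported here. The lists, the named genes and the comparison were chosen with earlier results of these data known. Alternatives covered other scalings, filters, covariates, batches, left-out animals, thinned counts, DESeq2 1.42.0, all animals in the fit, and single libraries with limma 3.58.1.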

Additional observations from a re-analysis of the deposited data

Results flagged for a closer look

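In groups of 4 to 6 animals, 11 of 276 sets of values (3.99%) had 1 animal farther from the rest than Dixon's 95% criterion allows, where chance gives about 1 in 20, and 9 of them are given here. At P0, 1 batch 1 male had Ezh2 at 72.6 CPM (nearest other animal 54.9), Kcnab2 at 34.1 CPM (38.7) and a sum of GABA and glycine receptor and chloride transport genes of 2158 CPM (1856). The first batch 3 female at P0 had a sum of thyroid hormone genes of 1466 CPM (1684). The other batch 3 female had a sum of interneuron genes of 1275 CPM (1355). At P22, 1 batch 1 female had Ttr at 111 CPM (2.87) and a sum of choroid plexus genes of 131 CPM (11.6). Another P22 animal had Draxin at 0.781 CPM (0.318), and 1 batch 3 animal had Myt1 at 6.76 CPM (7.57).

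The age change differed between genotypes for Gm14403, a predicted gene, by 1.8 ± 0.27 (SE) on the log2 scale, with 1.47 in WT and 3.27 in HET (edgeR FDR 0.0149). It was the 1 gene called of 19784. Without 1 P0 WT male of batch 1 the difference was 1.71 and the call was lost (edgeR FDR 0.114).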

How the results depend on the processing

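The number of genes called stayed within 1.5 times 15200 under every alternative (13949 to 18109), and no call turned into a call of the opposite direction. Leaving out 1 animal gave 14620 to 15582 genes, and 6194 to 6811 over 2-fold. The numbers in the labels mark libraries of 1 animal and pair no animals across ages. A replicate block, with libraries kept apart and the animal as correlated unit (limma), called 13949 genes, 5026 over 2-fold, and changed no direction. Of 354 named genes 339 were called and 320 kept call and direction throughout. The difference between HET and WT called 0 to 143 genes when 1 animal was left out. Within batch 1 and within batch 3, 0 and 0 of the 15 ratios could pass, since 2 against 3 animals allow no p below 0.2.

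Of 48 lists, 39 kept the sign of their median. The ependymal median became -0.0199 with library totals, -0.0406 without a covariate and -0.0136 within batch 1. The interneuron median became 0.104 within batch 1 and the radial glia median 0.00925 within batch 3. The choroid plexus median was -1.02 within batch 3 and -0.0764 to 1.51 with 1 animal left out, below 0 without either P0 male or the P22 female with high Ttr, and the thalamic median was -0.861 within batch 3 and -0.111 to 0.315 with 1 animal left out, below 0 without either P0 male. With library totals Ddost was at -0.1237 and Arel1 at -0.1258. Within batch 1 Rgs9 was at 0.007176, Tmsb4x at 0.01197 and Grm2 at -0.01501. The cause was not tested. Low counts limit genes near 0 at 1 age, and sex and batch cannot be told apart at P0.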
